A study of Mus musculus with 3 samples.

Results

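The 10 genes followed here carry phenylalanine into cells, oxidise it, supply the cofactor of its hydroxylation or charge it onto its tRNA, and they were measured through the cell types of the mouse spleen. They were taken by symbol, and all 10 were present among the 33696 genes of the count matrices: Il4i1, Slc7a5, Slc3a2, Slc7a8, Slc43a2, Qdpr, Pcbd1, Gch1, Farsa and Farsb. The study profiled single spleen cells with a 5′ droplet kit in 3 libraries, labelled Chow, MASH and MASH-Phe-free, with 1 library in each group. Values given below as a series of 3 are always in that order.

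The series title places phenylalanine in the setting of liver cancer with MASH, and the labels give neither the diets, the age and sex of the mice behind each spleen, nor the number of spleens pooled. The design text of the series was written for bulk RNA of tumours. It describes C3H mice taken through a high-fat diet and then a modified methionine- and choline-deficient diet to bring on NASH (nonalcoholic steatohepatitis), beside controls on a non-NASH diet, with HCA-1 mouse hepatocellular carcinoma cells placed under the skin of both groups. Whether the spleens came from those mice, and so whether all 3 groups carried the tumour, is not stated in the sources used here, and the labels say nothing of the Phe-free treatment beyond its name. With 1 library a group no difference has a replicate check. All intervals below are 95% intervals that cover counting error alone, and the spread between animals is not in them.

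Phenylalanine enters cells mainly through the L-type transporters. Slc7a5 (LAT1) and Slc7a8 (LAT2) reach the membrane bound to the heavy chain Slc3a2 (CD98), which also serves other light chains, while Slc43a2 (LAT4) works without a partner and lets neutral amino acids pass down their gradient. In the liver phenylalanine is hydroxylated to tyrosine with tetrahydrobiopterin as the cofactor. Gch1 catalyses the first and rate-limiting step in making tetrahydrobiopterin, and Pcbd1 and Qdpr regenerate it after use. Il4i1 is a secreted L-amino acid oxidase that turns phenylalanine into phenylpyruvate, hydrogen peroxide and ammonia. It was first described as a gene induced by interleukin-4 in B cells and is known from antigen-presenting cells. Farsa and Farsb are the catalytic and the partner subunit of the cytosolic enzyme that loads phenylalanine onto its tRNA.

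After filters 48562 cells were clustered without the 10 genes, and clusters were named from marker lists, so that every class is "X-like". The 11 classes with at least 50 cells in every library were compared: B-like (5814, 5879 and 4372 cells), T-like, NK-like, plasma-like, dendritic-like, migratory DC-like, monocyte-like, macrophage-like, neutrophil-like, erythroid-like and platelet-like cells. Total depth was 138787602, 152501471 and 160115282 unique molecular identifiers (UMIs), with medians of 7169, 5873 and 6263 per barcode. Macrophage-like cells were shallow, with medians of 1061, 1093 and 1169 UMIs, and plasma-like cells deep, with medians of 22771, 21182 and 19791. Pairs of libraries shared 72 to 102 cell barcodes. Erythroid-like and neutrophil-like cells differed in makeup between the libraries. Erythroid-like cells of the late stage numbered 4, 406 and 31 against 77, 342 and 476 of the early stage, and immature neutrophil-like cells numbered 376, 73 and 622 against 567, 730 and 945 mature ones. Other classes differed too. Classical monocyte-like cells numbered 176, 249 and 418 against 390, 279 and 404 nonclassical ones. Follicular-like B cells numbered 2712, 2158 and 1693 against 2041, 2384 and 1668 marginal zone-like ones. The level of a gene in a class is its share of the class's summed UMIs, in counts per 1000000 UMIs (CPM).

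The charging enzyme and Gch1 serve to show the starts of genes. Farsa and Farsb encode subunits of a single enzyme and were the closest pair of the 10 across cell types (Pearson's r 0.79). Qdpr was nearly as close to Farsb (0.76) and Farsa (0.74), and Farsa and Farsb were highest in different classes. Gch1 had the largest differences between libraries. The lines below give the 250 bases before each gene's start, 5′ to 3′ on the gene's strand, from RefSeq on GRCm38.p6, a build other than the GRCm39 named in the submitters' processing notes. The windows lie at chr8:84856736-84856985 (Farsa, plus strand), chr1:78488898-78489147 (Farsb, minus strand) and chr14:47189414-47189663 (Gch1, minus strand), and none overlaps an annotated exon of GENCODE M21. Capitals mark the only motif match found in them.
Farsa: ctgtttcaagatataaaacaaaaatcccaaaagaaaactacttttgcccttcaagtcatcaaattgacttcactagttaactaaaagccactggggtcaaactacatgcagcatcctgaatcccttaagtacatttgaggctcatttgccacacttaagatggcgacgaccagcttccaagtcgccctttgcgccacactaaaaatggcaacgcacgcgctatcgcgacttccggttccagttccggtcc
Farsb: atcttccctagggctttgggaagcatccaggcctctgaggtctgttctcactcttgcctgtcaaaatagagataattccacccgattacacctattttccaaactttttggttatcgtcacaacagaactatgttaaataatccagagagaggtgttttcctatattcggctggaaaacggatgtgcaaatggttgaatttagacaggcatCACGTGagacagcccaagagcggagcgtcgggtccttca
Gch1: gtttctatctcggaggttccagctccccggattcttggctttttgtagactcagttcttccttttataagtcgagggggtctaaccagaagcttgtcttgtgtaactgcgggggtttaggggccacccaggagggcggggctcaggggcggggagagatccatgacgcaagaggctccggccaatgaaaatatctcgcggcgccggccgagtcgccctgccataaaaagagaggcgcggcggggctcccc
Motifs were searched on both strands: TGATGNAA (the composite site of ATF4 and C/EBP factors), the letters TTC and GAA with 4 bases between them (STAT6), CACGTG (the E-box of MITF and TFE factors, which reads the same on both strands) and GAGGAAGT (PU.1). The E-box stood 39 bases before the start of Farsb, and 6.02% of 32817 RefSeq windows of 250 bases hold one. The windows of Farsa and Gch1 held no match. RefSeq gave 10 windows for 9 of the 10 genes, with none for Slc7a5. Across them 2 other matches were found: ACTTCCTC, the PU.1 letters on the opposite strand, 133 bases before the start of Il4i1 (2.44% of windows hold that motif), and TTCTATGGAA, a STAT6 match 211 bases before a start of Slc43a2 (5.85%). The Il4i1 window lies wholly in exons of Il4i1 and Tbc1d17, and both Slc43a2 windows in exons of Gm45606. The ATF4 letters, held by 3.45% of windows, were in none of the 10. These are matches of letters and not measured sites.

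**Figure D1:**
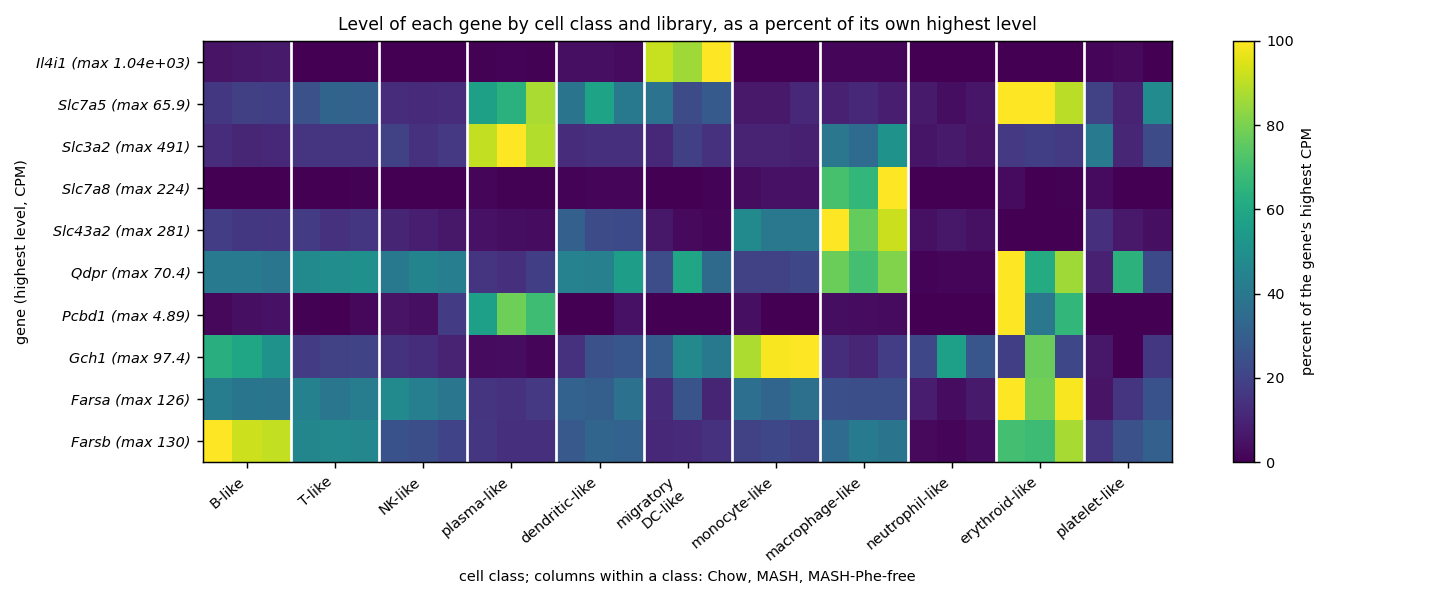
Level of each of the 10 genes (rows) in 11 cell classes (blocks of 3 columns: Chow, MASH, MASH-Phe-free), as a percent of that gene's own highest CPM, which stands beside its name. Il4i1 is high in migratory DC-like cells, Slc3a2 in plasma-like cells, Slc7a8 and Slc43a2 in macrophage-like cells, and Gch1 in monocyte-like cells, while erythroid-like MASH cells show a Gch1 level that the other erythroid-like blocks lack.

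Il4i1 had its highest level in a small class. In migratory DC-like cells, the Ccr7- and Fscn1-bearing dendritic cells that carry antigen to lymphoid tissue, its level was 953 CPM (interval 876 to 1030), 891 CPM (831 to 954) and 1040 CPM (954 to 1130). The median over the 11 classes was lower 158-fold, 87.9-fold and 261-fold. These cells were few (167, 279 and 153). All 10 markers of their list had UMIs in each library, but the class was named from that list. In B-like cells of the Chow and MASH libraries all 10 had UMIs as well, so this does not check the name. B-like cells came second in every library, at 53.9, 67.6 and 75.6 CPM, and dendritic-like cells followed at 42.9, 42.4 and 31.8 CPM. Since B-like cells were far more numerous, they held 70.9%, 67.5% and 71.7% of all Il4i1 UMIs from 37.1%, 33.9% and 24.0% of all UMIs. Migratory DC-like cells held 15%, 16.6% and 14.1% from 0.445%, 0.633% and 0.345%. T-like cells (0.599, 0.676 and 0.556 CPM), NK-like, neutrophil-like and erythroid-like cells stayed at or below 1.36 CPM. The intervals of those 4 classes overlap in each library.

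Within conventional dendritic-like cells Il4i1 belonged to the cDC2-like subset, with 91.2, 86.3 and 67.0 CPM, and not to the cDC1-like subset, with 3.38, 3.45 and 0 CPM (5, 6 and 0 UMIs). The limit that a count of 0 allows, 3 UMIs, is 2.08 CPM in the last of these.

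Among B-like cells Il4i1 followed the subsets. Germinal centre-like cells stood at 132, 109 and 87.9 CPM, follicular-like cells at 78.9, 103 and 133 CPM, transitional-like cells at 60.7, 46.4 and 62.0 CPM, marginal zone-like cells at 35.1, 50.2 and 49.7 CPM, and B1-like cells at 21.2, 51.6 and 39.4 CPM. The highest cluster was a small follicular-like one led by Egr1, Egr3, Nr4a1 and Nfkbid, genes known to be switched on early after stimulation. It had 83, 75 and 78 cells and Il4i1 levels of 288, 418 and 495 CPM. A germinal centre-like cluster led by Rgs13 had 213, 205 and 125 CPM. The large follicular-like cluster led by Rflnb and Fcer2a had 55.8, 73.0 and 86.5 CPM.

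**Figure D2:**
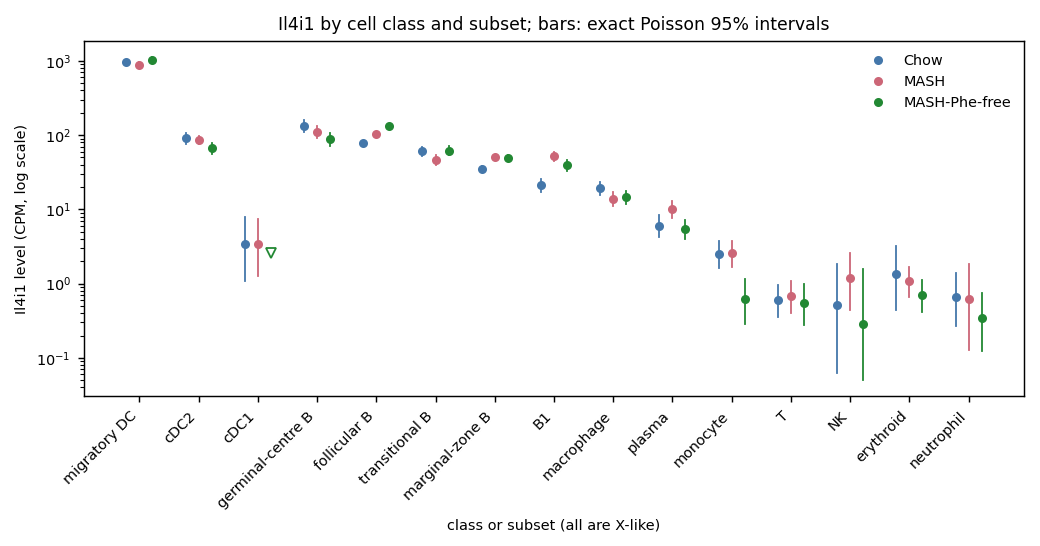
Il4i1 level (CPM, log axis) in 15 cell classes and subsets for the 3 libraries, with exact Poisson 95% intervals. The open triangle marks 0 UMIs, drawn at the upper bound of its interval; migratory DC-like cells lie near 1000 CPM in all 3 libraries, and follicular-like B cells go from 78.9 to 103 to 133 CPM.

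Il4i1 was higher in B-like cells of the MASH library than of the Chow library by 1.25-fold (interval 1.19 to 1.32), and higher again in the MASH-Phe-free library by 1.12-fold (1.06 to 1.18). In follicular-like cells both steps were 1.30-fold. After each cell was thinned to 2524 UMIs, 9.99%, 12.4% and 13.5% of B-like cells had an Il4i1 UMI, against 22.7%, 27.3% and 29.7% without thinning. The thinned share was 0%, 0.426% and 0% in erythroid-like cells and 0.106%, 0% and 0% in neutrophil-like cells, which are not known to make the enzyme. The steps were not the same in every B-like cluster: 7 of 11 were above 1 for MASH over Chow and 8 of 12 for MASH-Phe-free over MASH. B1-like cells had the largest ratio of MASH over Chow among the subsets, at 2.44-fold (1.90 to 3.15), where 1.98% of genes in those cells were at least 1.5-fold higher.

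Migratory DC-like cells had an Il4i1 ratio of 0.935 (0.839 to 1.04) for MASH over Chow and of 1.17 (1.05 to 1.30) for MASH-Phe-free over MASH. A few cells carried much of it. The 3 cells with the most Il4i1 held 29.8%, 19.2% and 27.7% of its UMIs, and levels without them were 725, 767 and 867 CPM. In the main cluster of the class, with 140, 234 and 128 cells, the levels were 594, 759 and 916 CPM, and the order of Chow and MASH was reversed in both cases. After thinning to 746 UMIs the shares of cells with a UMI were 32.0% (24.6% to 40.1%), 36.5% (30.4% to 42.9%) and 39.9% (31.9% to 48.2%), and these exact Clopper-Pearson intervals overlap. Summed B-cell markers in the same cells were 759, 318 and 515 CPM and neutrophil markers 254, 62.5 and 322 CPM. Their part in the result was not tested.

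In plasma-like cells Il4i1 had 37, 61 and 45 UMIs, or 6.01, 10.1 and 5.43 CPM. The ratio was 1.68 (1.10 to 2.61) for MASH over Chow and 0.536 (0.356 to 0.8) for MASH-Phe-free over MASH. Those UMIs lay in 8, 13 and 14 cells, and the 3 richest cells held 86.5%, 77.0% and 60.0% of them. Without these cells the levels were 0.829, 2.37 and 2.19 CPM, under the 10 CPM that a call needs. The ratios there, 2.86 and 0.924, rest on few UMIs, so neither call can be made without these cells.

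By GENCODE M21, 2 of 6 annotated Il4i1 transcripts share 86 or 88 exonic bases with Nup62, its neighbour on the same strand, which encodes a nuclear pore protein. Of the 6, 5 overlap exons of Tbc1d17 on the opposite strand. Il4i1-201, Il4i1-203, Il4i1-204 and Il4i1-205 do so over all their exonic bases, and Il4i1-202 over 1979 of 2275. Whether counting used the strand is not given in the sources used here. Nup62 stood at 56.8, 57.0 and 46.8 CPM in migratory DC-like cells, at 24.0, 23.7 and 27.7 CPM in B-like cells and at 23.1, 21.8 and 24.0 CPM in T-like cells. Tbc1d17 stood at 30.1, 27.4 and 43.1 CPM, 38.7, 38.2 and 37.3 CPM, and 25.6, 25.8 and 27.7 CPM in the same classes. In T-like cells, where Il4i1 was under 1 CPM, Nup62 was close to its level in B-like cells and Tbc1d17 was lower than there.

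Slc3a2, the heavy chain, was highest in plasma-like cells, which secrete antibody, at 446, 491 and 434 CPM. They held 23.6%, 23.4% and 25.8% of its UMIs from 4.58%, 4.18% and 5.36% of all UMIs. Macrophage-like cells had 194, 172 and 252 CPM. T-like cells had 76.3, 75.0 and 76.1 CPM, erythroid-like cells 81.8, 90.9 and 83.3 CPM, B-like cells 61.4, 52.2 and 56.3 CPM, and neutrophil-like cells the lowest level in every library, 28.4, 35.6 and 25.4 CPM. A platelet-like level of 200 CPM in the Chow library rested on 1 cell with 21 of its 31 UMIs.

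The level of Slc3a2 in plasma-like cells was close between libraries, with ratios of 1.10 (1.04 to 1.16) and 0.883 (0.841 to 0.927). In macrophage-like cells it was 0.890 (0.817 to 0.969) and then 1.46 (1.36 to 1.58), just under the 1.5-fold threshold used below. Migratory DC-like cells had 56.8, 93.1 and 69.3 CPM, a ratio of 1.64 (1.09 to 2.52) for MASH over Chow from 34 and 85 UMIs.

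Slc7a5, the light chain of LAT1, was, among the 11 classes, highest in erythroid-like cells at 65.8, 65.9 and 59.2 CPM, then in plasma-like cells at 37.4, 42.2 and 57.5 CPM. Erythroid-like cells of the late stage in the MASH library reached 141 CPM, and early-stage cells had 70.3, 46.1 and 60.8 CPM. Germinal centre-like B cells had 43.5, 38.8 and 29.6 CPM, where all B-like cells had 10.7, 12.5 and 12.1 CPM. Of the classes too small to compare, basophil- or mast-like cells had more, 165 (133 to 202), 192 (152 to 238) and 151 CPM (116 to 193), and pDC-like cells had 77.0, 69.4 and 65.5 CPM. Monocyte-like cells (4.40, 4.38 and 7.69 CPM) and neutrophil-like cells (4.67, 2.50 and 4.05 CPM) were among the lowest.

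In plasma-like cells Slc7a5 was 1.36-fold higher (1.17 to 1.59) in the MASH-Phe-free than in the MASH library and 1.13-fold (0.941 to 1.36) higher in MASH than in Chow. The ratio of MASH-Phe-free over Chow was 1.54 (1.31 to 1.81), where 2.25% of genes in plasma-like cells were at least 1.5-fold higher. T-like cells had 16.4, 21.2 and 20.8 CPM, with a MASH over Chow ratio of 1.29 (1.14 to 1.46). Of their subsets, regulatory T-like cells had 9.49, 19.0 and 17.2 CPM, a ratio of 2.0 (1.35 to 3.0) from 42 and 72 UMIs, and 1.95% of genes there were at least 1.5-fold higher. Dendritic-like cells had 25.3, 38.1 and 26.7 CPM and ratios of 1.5 (1.17 to 1.95) and 0.701 (0.553 to 0.885). The first was 1.34 without the 3 richest cells of each library and was past 1.5-fold in 3 of 8 other ways of processing. Neither subset passed 1.5-fold, with 18.9, 24.2 and 19.4 CPM in cDC1-like and 24.1, 19.3 and 22.8 CPM in cDC2-like cells. The MASH level of each subset lies below the 38.1 CPM of the class. Dendritic-like cells of neither subset thus had more, and the subsets held 398 and 562 of 1010 MASH cells.

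Slc7a8, the light chain of LAT2, marked macrophage-like cells. They held 73.9%, 77.8% and 80.0% of its UMIs from 4.06%, 4.51% and 4.41% of all UMIs, at 159 CPM (149 to 170), 148 CPM (139 to 158) and 224 CPM (213 to 236). The second class, monocyte-like cells, had 7.87, 11.1 and 10.6 CPM, and B-like cells at most 0.108 CPM. Migratory DC-like cells had 0, 0 and 1 UMI. Basophil- or mast-like cells, too few for the comparison, had 207, 187 and 153 CPM, with a UMI in 36 of 46, 32 of 40 and 27 of 34 cells. Slc43a2 was also highest in macrophage-like cells, at 281, 215 and 258 CPM, but it was broader. Monocyte-like cells had 133, 113 and 112 CPM, cDC2-like cells 156, 105 and 105 CPM against 23.7, 17.8 and 22.9 CPM in cDC1-like cells, and erythroid-like cells at most 0.753 CPM.

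In macrophage-like cells Slc7a8 was 1.51-fold (1.39 to 1.64) higher in the MASH-Phe-free than in the MASH library, after a MASH over Chow ratio of 0.933 (0.851 to 1.02). The first of these lies at the threshold and was past 1.5-fold in 2 of 8 other ways of processing, with log2 values from 0.48 to 0.74. Slc3a2, its heavy chain, had the 1.46-fold given above, and Slc43a2 was 1.20-fold (1.12 to 1.29) higher after 0.764 (0.711 to 0.822). Between the MASH-Phe-free and MASH libraries 4.09% of genes in these cells were at least 1.5-fold higher, and the median log2 ratio was 0.24 over the 8 of the 10 genes that could be compared and 0.04 over 8581 genes. All 3 transporters were above 1 in each of the 3 clusters with enough UMIs, from 1.28 to 1.94 for Slc7a8, 1.17 to 1.64 for Slc3a2 and 1.05 to 1.28 for Slc43a2. The interval of Slc43a2 includes 1 in 2 of those clusters. With cells thinned to 594 UMIs, 6.28% (5.32% to 7.36%), 5.40% (4.62% to 6.26%) and 9.39% (8.34% to 10.5%) of macrophage-like cells had an Slc7a8 UMI, against 14.5%, 13.5% and 21.8% without thinning. Erythroid-like cells had 0%, 0.113% and 0.159% at the same depth. The 13 macrophage markers summed to 24400, 24200 and 27200 CPM, neutrophil markers to 514, 144 and 563 CPM, and erythroid markers to 122, 275 and 287 CPM in the same cells. The part of these in the ratios was not tested.

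**Figure D3:**
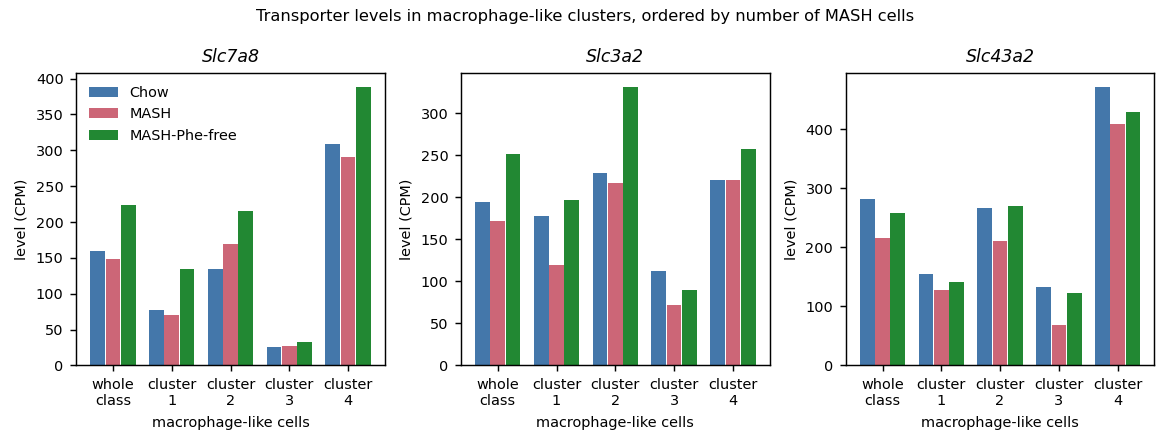
Levels (CPM, axes from 0) of Slc7a8, Slc3a2 and Slc43a2 in all macrophage-like cells and in their 4 clusters, for the 3 libraries. In every cluster the MASH-Phe-free bar stands above the MASH bar, and the third cluster rests on 5 to 26 UMIs a bar.

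Slc43a2 was lower in MASH than in Chow in 7 of the 8 classes where it could be compared, with ratios from 0.742 in dendritic-like cells to 0.876 in B-like cells. None of the 8 passed 1.5-fold. The exception was neutrophil-like cells at 1.45 (1.09 to 1.91), whose mature subset went the other way, from 49.5 to 25.2 CPM, a ratio of 0.509 (0.376 to 0.687), with 48.5 CPM in MASH-Phe-free. In mature neutrophil-like cells 14.0% of genes were at least 1.5-fold lower in MASH than in Chow. Immature cells had 2.60, 2.45 and 2.64 CPM of Slc43a2. Within classes it was below 1 in 12 of 12 T-like, 5 of 5 monocyte-like, 3 of 3 macrophage-like and 8 of 10 B-like clusters. The median log2 ratio over all genes was -0.03 in T-like, -0.06 in monocyte-like, -0.08 in macrophage-like and -0.05 in B-like cells. It was 0.07 in dendritic-like, -0.05 in NK-like and -0.19 in plasma-like cells. The direction of Slc43a2 held in 7 or 8 of 8 classes under each of the 8 other ways of processing that were run, both other scalings included. All classes and clusters share the same Chow and MASH libraries, and the share of all genes with such a run of direction is not given here.

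Gch1, which commits GTP to tetrahydrobiopterin, was highest in monocyte-like cells, at 85.5, 96.5 and 97.4 CPM. B-like cells had 61.4, 57.7 and 49.5 CPM and held the largest share of its UMIs in each library (58.0%, 41.4% and 33.7%). T-like cells had 16.8, 18.7 and 19.9 CPM and plasma-like cells at most 3.16 CPM.

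The erythroid-like class had 18.2, 75.1 and 21.3 CPM of Gch1, ratios of 4.12 (3.23 to 5.35) and 0.283 (0.255 to 0.313). Of the 1397 MASH UMIs 847 lay in late-stage cells, which had 254 CPM (237 to 272), while the early stage had 8.43, 9.09 and 6.79 CPM. The early and late stages took in 342 and 406 of 891 MASH cells, and cells of neither stage held part of the other UMIs. In each library the early-stage level lies below that of the class. The late stage had too few cells in the other libraries for a level, so the ratios of the class and its makeup cannot be told apart. The neutrophil-like class had the same order, with 21.3, 54.9 and 25.9 CPM and ratios of 2.58 (2.15 to 3.09) and 0.472 (0.405 to 0.551). Its immature subset had 14.0, 15.5 and 16.2 CPM and its mature subset 57.9, 79.5 and 80.4 CPM. Within mature cells the ratios were 1.37 (1.10 to 1.71) and 1.01 (0.850 to 1.20), and neither passed 1.5-fold. Among all genes of neutrophil-like cells, 42.7% were past 1.5-fold for MASH over Chow and 46.2% for MASH-Phe-free over MASH.

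**Figure D4:**
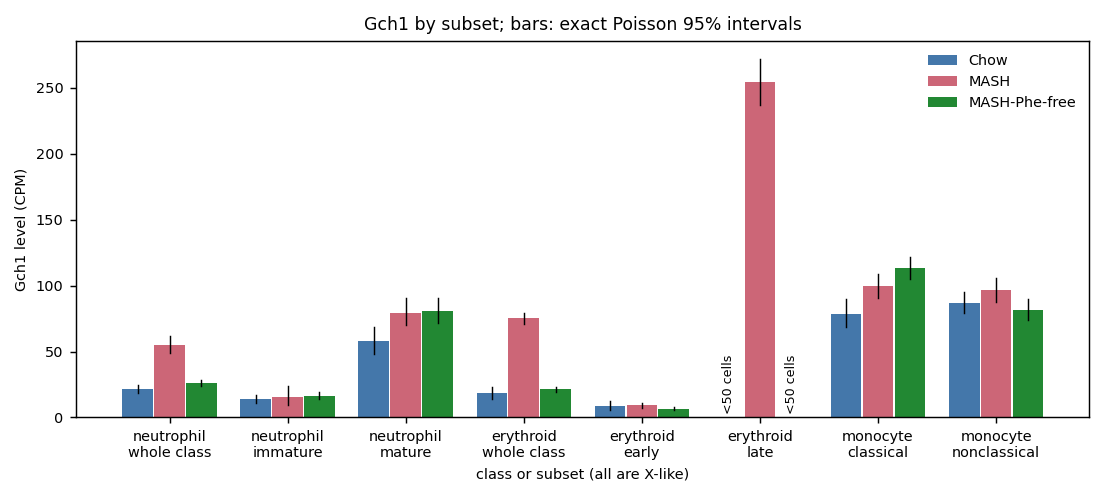
Gch1 level (CPM, from 0, with exact Poisson 95% intervals) in whole classes and subsets of neutrophil-like, erythroid-like and monocyte-like cells for the 3 libraries. The whole-class bars of neutrophil-like and erythroid-like cells are highest in MASH. The bars of immature and early cells lie close together, and the bar of mature neutrophil-like cells is lowest in Chow. Late erythroid-like cells give a level in the MASH library alone, and erythroid-like cells of neither stage enter only the whole-class bars.

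Dendritic-like cells had 13.8, 24.2 and 26.0 CPM of Gch1, a MASH over Chow ratio of 1.75 (1.25 to 2.48), where 5.66% of genes were at least 1.5-fold higher. The cDC2-like subset had 14.6, 28.1 and 29.3 CPM and a ratio of 1.93 (1.19 to 3.23), where 5.12% of genes were at least 1.5-fold higher. Macrophage-like cells had 12.6, 10.6 and 17.7 CPM and a ratio of 1.67 (1.23 to 2.28) for MASH-Phe-free over MASH, from 69 and 121 UMIs. Their clusters, with 5 to 19 UMIs each in these libraries, ranged from 0.680 to 1.45, all below the ratio of the class. Part of the 121 MASH-Phe-free UMIs lay outside these clusters. The ratio of the class was past 1.5-fold in 5 of 8 other ways of processing. Its log2 value was 0.02 with clusters weighted alike. Migratory DC-like cells had 28.4, 46.0 and 39.3 CPM, a ratio of 1.62 whose interval (0.902 to 3.03) includes 1, and of 1.41 without the 3 richest cells. It was past 1.5-fold in 3 of 8 other ways of processing.

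Qdpr, the recycling reductase, was spread over most classes. Erythroid-like cells had 70.4, 43.2 and 60.4 CPM, macrophage-like cells 54.6, 49.4 and 57.1 CPM, T-like cells 33.7, 34.6 and 35.3 CPM and B-like cells 28.8, 29.1 and 27.6 CPM. Neutrophil-like cells had at most 1.25 CPM. In erythroid-like cells the ratios were 0.613 (0.532 to 0.708) and 1.40 (1.28 to 1.53), where 18.7% of genes were at least 1.5-fold lower in MASH. The first was past 1.5-fold in 4 of 7 other ways of processing. The early stage had 86.8, 69.4 and 73.7 CPM, and the late stage in MASH had 2.10 CPM. Migratory DC-like cells had 16.7, 41.6 and 24.3 CPM of Qdpr from 10, 38 and 13 UMIs, and the ratio of MASH-Phe-free over MASH was 0.585 with an interval of 0.286 to 1.12. Pcbd1, which returns the used cofactor to the cycle, was near the limit of detection, with 53, 84 and 184 UMIs over all cells. Among the 11 classes its highest levels were in erythroid-like cells (4.89, 1.94 and 3.24 CPM) and plasma-like cells (2.76, 3.82 and 3.38 CPM). Progenitor-like cells, outside the 11, had 3.71, 21.8 and 7.90 CPM, the middle value from 11 UMIs in 13 cells, and stroma- or endothelial-like cells of MASH-Phe-free had 17 UMIs, 14 of them in 1 cell. No class gave a Pcbd1 ratio that could be used.

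Farsa, the catalytic subunit of phenylalanyl-tRNA synthetase, was highest in erythroid-like cells at 126, 99.3 and 125 CPM. NK-like cells had 60.1, 54.5 and 49.3 CPM, T-like cells 55.3, 49.4 and 53.0 CPM and B-like cells 53.0, 48.8 and 48.6 CPM. Farsb, its partner, was highest in B-like cells at 130, 120 and 118 CPM, followed by erythroid-like cells at 91.3, 89.3 and 113 CPM. T-like cells had 59.8, 61.0 and 60.2 CPM. Both were low in plasma-like cells, with 19.2, 17.8 and 21 CPM of Farsa and 20.6, 17.6 and 17.5 CPM of Farsb, and lowest or second lowest in neutrophil-like cells, with 10.1, 4.16 and 9.29 CPM and 3.43, 2.29 and 4.10 CPM. B1-like cells had the highest Farsb level of the B-like subsets, 193, 188 and 169 CPM.

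Differences between libraries in the charging pair were small. Farsa in B-like cells had ratios of 0.920 (0.870 to 0.973) and 0.997 (0.937 to 1.06), and Farsb 0.928 (0.896 to 0.962) and 0.981 (0.943 to 1.02). In erythroid-like cells both subunits were 1.26-fold (1.19 to 1.34) higher in MASH-Phe-free than in MASH. The median log2 ratio of all genes there was 0.21. The early stage alone had 133, 133 and 136 CPM of Farsa and 91.0, 111 and 118 CPM of Farsb. Farsa passed 1.5-fold in 1 class, neutrophil-like cells, at 0.412 (0.242 to 0.669) for MASH over Chow, from 106 and 20 UMIs. Its levels were 8.79, 5.72 and 7.83 CPM in immature and 3.57, 1.96 and 4.44 CPM in mature cells, where it was too low to compare.

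Over all 10 genes and 11 classes, 64 of 110 pairs had enough UMIs in each comparison, that is at least 50 in the 2 sums and 10 CPM in the higher. For MASH over Chow 9 pairs were past 1.5-fold, 7 higher and 2 lower, beside 12.5% of 75677 gene and class pairs in all (4.65% higher and 7.83% lower). The higher ones were Gch1 in erythroid-like, neutrophil-like, dendritic-like and migratory DC-like cells, Slc7a5 in dendritic-like, Slc3a2 in migratory DC-like and Il4i1 in plasma-like cells. Qdpr in erythroid-like and Farsa in neutrophil-like cells were lower. Without erythroid-like and neutrophil-like cells 5 of 54 pairs were past it, beside 7.90% of all. For MASH-Phe-free over MASH 6 of 64 pairs were past 1.5-fold, beside 8.94% of 74706 pairs (4.67% higher and 4.27% lower). Slc7a8 and Gch1 in macrophage-like cells were higher. Gch1 in erythroid-like and neutrophil-like cells, Qdpr in migratory DC-like and Il4i1 in plasma-like cells were lower. Both shares lie near the background and are not a result about the 10 genes. The 2 comparisons share the MASH library. For MASH-Phe-free over Chow 4 of 63 pairs were past 1.5-fold, beside 6.45% of all. Slc7a5 in plasma-like cells (1.54, above) and Gch1 in dendritic-like cells (1.88, 1.33 to 2.69) were higher. Slc43a2 in NK-like cells (0.609, 0.440 to 0.836) and Slc3a2 in platelet-like cells (0.578, 0.336 to 0.991), whose Chow level rested on 1 cell, were lower.

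The share of all genes past 1.5-fold in the same direction differed by class. For MASH over Chow, 4.66% of genes in erythroid-like, 19.4% in neutrophil-like, 5.66% in dendritic-like, 8.71% in migratory DC-like and 1.15% in plasma-like cells were higher. In erythroid-like cells 18.7% were lower, and in neutrophil-like cells 23.3%. For MASH-Phe-free over MASH, 4.09% were higher in macrophage-like cells, and 3.67% in erythroid-like, 23.7% in neutrophil-like, 10.6% in migratory DC-like and 1.79% in plasma-like cells were lower. Set against these shares, a call in neutrophil-like cells was common among genes and one in plasma-like cells was rare. The Il4i1 calls in plasma-like cells rested on few cells, as given above. In T-like and NK-like cells no gene of the 10 passed 1.5-fold for MASH over Chow or MASH-Phe-free over MASH, nor did any in B-like or monocyte-like cells. For MASH over Chow 1.98% of genes passed it in B-like, 1.45% in T-like, 6.97% in NK-like and 6.78% in monocyte-like cells. The shares for MASH-Phe-free over MASH were 0.719%, 0.309%, 4.25% and 4.01%. None of the 10 passed 1.5-fold in macrophage-like cells for MASH over Chow, where 12.6% of genes did. The same held in dendritic-like cells for MASH-Phe-free over MASH, where 5.48% of genes did.

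**Figure D5:**
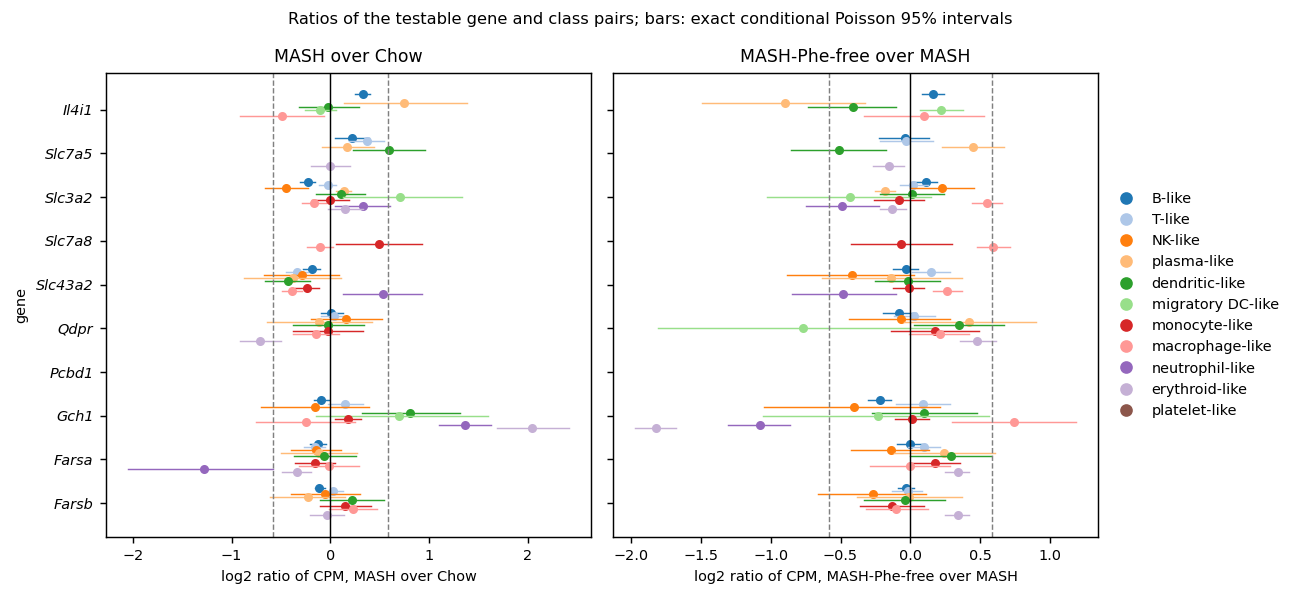
Log2 ratio of CPM for each gene and class with enough UMIs (points, coloured by class), with exact conditional Poisson 95% intervals, for MASH over Chow (left) and MASH-Phe-free over MASH (right). Dashed lines mark 1.5-fold; 9 of 64 points lie beyond them on the left and 6 of 64 on the right, and Pcbd1 has none.

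Of the other genes around phenylalanine, several enzymes of tyrosine breakdown and use were nearly undetected in the spleen. Hpd had 1, 0 and 2 UMIs over all cells. Tat, Tyr, Dct and Tyrp1 had none. Of the 11 genes of phenylalanine and tyrosine breakdown 6 could be compared for MASH over Chow, with 4 of 40 gene and class pairs higher and 2 lower, beside 4.65% and 7.83% of all gene and class pairs. Mif, the cytokine that also has tautomerase activity on phenylpyruvate-like substrates, was higher in neutrophil-like cells by 4.48-fold (3.4 to 5.95) and then lower at 0.327 (0.264 to 0.406). The transaminase Got1 went the other way there, at 0.377 (0.291 to 0.482) and 1.93 (1.51 to 2.49). These are the cells in which 42.7% and 46.2% of genes were past 1.5-fold. Fah, the last enzyme of tyrosine breakdown, was 1.70-fold (1.17 to 2.50) higher in macrophage-like MASH cells. For MASH-Phe-free over MASH 2 of 43 pairs were higher and 2 lower, beside 4.67% and 4.27% of all pairs. Among the higher was Gstz1 in NK-like cells at 1.65-fold (1.04 to 2.61).

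Of 49 pairs from the 8 genes of tetrahydrobiopterin synthesis and recycling, 6 were higher and 2 lower for MASH over Chow, again beside 4.65% and 7.83% of all pairs. Beside the Gch1 and Qdpr pairs above, Spr, the enzyme of the last synthetic step, was lower in erythroid-like cells at 0.642 (0.543 to 0.761). In those cells 18.7% of genes were at least 1.5-fold lower. For MASH-Phe-free over MASH 2 of 51 pairs were higher and 3 lower, beside 4.67% and 4.27% of all pairs. Spr in plasma-like cells, at 1.58-fold (1.15 to 2.19), was among the higher. Of the enzymes that use the cofactor, the ether lipid hydroxylase Agmo could be compared in macrophage-like cells, with ratios of 0.623 (0.503 to 0.771) and 1.61 (1.31 to 1.98). Its levels were 38.3, 23.8 and 38.4 CPM. Nos1, a nitric oxide synthase, was lower in the same cells for MASH-Phe-free over MASH, at 0.366 (0.265 to 0.498). Th had 1, 0 and 0 UMIs in all.

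The 20 neutral amino acid transporters of the list gave 102 pairs for MASH over Chow, 6 higher and 9 lower, and 96 pairs for MASH-Phe-free over MASH, 2 higher and 4 lower. Of all gene and class pairs 12.5% and 8.94% were past 1.5-fold in these comparisons. Slc1a5, the glutamine and neutral amino acid exchanger, was 3.20-fold (2.53 to 4.11) higher and then 0.486 (0.443 to 0.533) in erythroid-like cells. Slc15a3, a peptide and histidine transporter of endolysosomes, was 2.69-fold (2.38 to 3.04) higher and then 0.378 (0.339 to 0.422) in neutrophil-like cells. Both classes differed in makeup between the libraries, as did others. For MASH over Chow, Slc38a1 was lower in migratory DC-like cells at 0.447 (0.271 to 0.727) and Slc38a9 in neutrophil-like cells at 0.470 (0.334 to 0.648). In those classes 9.36% and 23.3% of genes were at least 1.5-fold lower. Dendritic-like cells had a higher Slc36a4 level for MASH-Phe-free over MASH, at 1.81-fold (1.27 to 2.60), and a lower level of Slc7a7, another light chain of Slc3a2, at 0.635 (0.438 to 0.910).

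The mitochondrial synthetase Fars2 was lower in neutrophil-like cells for MASH over Chow at 0.476 (0.307 to 0.716) and in migratory DC-like cells for MASH-Phe-free over MASH at 0.458 (0.213 to 0.908). With Farsa it made up the 2 of 42 and 1 of 40 charging pairs past 1.5-fold, beside 12.5% and 8.94% of all pairs. Of 10 pairs from aromatic amine genes, 1 was past 1.5-fold for MASH over Chow, beside 12.5% of all pairs. It was Maoa in erythroid-like cells, which was lower at 0.529 (0.359 to 0.794). The genes of tryptophan oxidation and of the aryl hydrocarbon receptor, which Il4i1 products are known to engage, gave 4 higher and 3 lower of 41 pairs and then 0 higher and 4 lower of 42, beside 4.65% and 7.83% and then 4.67% and 4.27% of all pairs. In MASH, Kmo was higher in monocyte-like cells at 1.97-fold (1.47 to 2.66), Afmid in erythroid-like cells at 1.89-fold (1.41 to 2.58), and Kynu lower in macrophage-like cells at 0.536 (0.379 to 0.753). In MASH-Phe-free, Afmid was lower in erythroid-like cells at 0.564 (0.490 to 0.649). The receptor's repressor Ahrr was lower in dendritic-like cells at 0.562 (0.350 to 0.880) and its target Tiparp in neutrophil-like cells at 0.613 (0.539 to 0.699), and so was Arnt, the receptor's partner, at 0.624 (0.528 to 0.741). The cystine transporter Slc7a11, another partner of Slc3a2, was 3.37-fold (3.09 to 3.67) higher and then 0.268 (0.248 to 0.290) in neutrophil-like cells. In these cells 19.4% of genes were at least 1.5-fold higher and 23.3% lower for MASH over Chow, and 23.7% lower for MASH-Phe-free over MASH. In erythroid-like cells 4.66% were higher and 18.7% lower, and then 3.67% lower. Both classes differed in makeup between the libraries, and its part in these ratios was not tested.

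Across 34 class-by-library profiles the genes most like each of the 10 were ranked by Pearson's r of log2(CPM + 10) among 9505 genes. These profiles share libraries and depth, and the r values are descriptions. Il4i1 was nearest to Pakap (0.932), Cd83 (0.931), a maturation marker of dendritic cells and activated B cells, and Nid1 (0.915). Slc7a8 was nearest to Gm10134 (0.978), the cationic amino acid transporter Slc7a2 (0.967) and the apolipoprotein Apoc1 (0.965), and Slc43a2 was close to the lysosomal gene Npc1 (0.894) and to Ano6 (0.877). Slc3a2 was nearest to Ergic1 (0.865), Pon3 (0.836) and Creld2 (0.822), the last of them among the plasma cell markers. Slc7a5 was nearest to Ppa1 (0.874), Tmem238 (0.770) and Alms1 (0.769). Qdpr was nearest to the translation factors Gspt1 (0.920) and Eif2s1 (0.914) and to G3bp1 (0.906). Farsa was nearest to Lsm7 (0.973), Mrpl21 (0.957) and Idh3a (0.955), and Farsb to Utp20 (0.937), Mybbp1a (0.937) and Trmt1 (0.932). Gch1 had no close match, with Dleu2 at 0.771, 5530601H04Rik at 0.766 and Far1 at 0.759, and Pcbd1 was too low to rank. Among the 10 genes themselves Farsa and Farsb (0.79), Qdpr and Farsb (0.76), Qdpr and Farsa (0.74) and Slc7a8 and Slc43a2 (0.70) were the closest pairs. Slc7a5 and its heavy chain Slc3a2 had an r of 0.39.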

How the data were processed

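The deposited files hold UMI counts per gene and barcode for each spleen library. Reads were counted with Cell Ranger 9.0.1, per the file headers; the build GRCm39 (mm39) and Seurat 5.3.0 are named in the submitters' processing notes, with no role. Annotation release and use of strand are not given in the sources used here. Barcodes with at least 300 genes, 500 UMIs and at most 10% mitochondrial UMIs were kept. Scrublet marked 1.97%, 1.80% and 1.92% of them, which were removed. Counts were clustered with scanpy 1.11.5 (2000 variable genes without the 10 genes, 30 components, 15 neighbours, Leiden resolution 1.0) and clusters named from marker lists. Cells with markers of 2 classes (639, 703 and 688) were set aside as mixed. UMIs were summed per class and library and given as CPM with exact Poisson intervals, and ratios with exact conditional Poisson intervals (scipy 1.17.1). The ratio code was tested on simulated counts.

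A ratio was called past 1.5-fold where the sums held at least 50 UMIs and the higher level was at least 10 CPM. For shares of cells with a UMI, a class was brought to its 10th percentile of depth by random thinning, without its shallower cells. Of each pathway list at most 4 genes past 1.5-fold were named per comparison, largest fold first, with the 3 genes most like each of the 10 among genes reaching 30 CPM. The 10 genes and the lists were chosen with earlier results of these data known. With 1 library a group no test was possible. The effect of 10 other ways of processing, and of 2 more chosen after seeing the data, is given at the end. Results for a few genes of the lists are not reported here.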

Additional observations from a re-analysis of the deposited data

Results flagged for a closer look

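Gch1 differed in opposite directions in different classes between the MASH-Phe-free and MASH libraries. Its log2 ratio was 0.74 in macrophage-like cells, -1.82 in erythroid-like cells and -1.08 in neutrophil-like cells. With clusters weighted alike, an alternative treated below, these values were 0.02, -0.14 and 0.18. The first was past 1.5-fold in 5 of 8 other ways of processing. With 1 library a group, the difference between classes was not tested. Late-stage cells numbered 406 in MASH and 31 in MASH-Phe-free among erythroid-like cells, and immature cells 73 and 622 among neutrophil-like cells. Early erythroid-like cells had 9.09 and 6.79 CPM of Gch1 and mature neutrophil-like cells 79.5 and 80.4 CPM in these libraries.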

How the results depend on the processing

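For MASH over Chow the 9 pairs past 1.5-fold became 34 of 105 with no minimum of UMIs or CPM, 3 at 2-fold, and 5 of 54 without erythroid-like and neutrophil-like cells, an alternative chosen after seeing the data. For MASH-Phe-free over MASH the 6 pairs became 12 of 71 with each library clustered on its own (3 shared with the 6), 14 of 62 with a mean over cells (4 shared), 33 of 105 with no minimum and 2 at 2-fold. The other alternatives gave counts within 1.5 times. Of 113 log2 ratios not past 1.5-fold, 45 changed sign under at least 1 alternative (93 of 900 values). Farsa (MASH over Chow), below 0 in 9 of 9 classes, was below 0 in 7 to 9 of 8 or 9 classes under the alternatives. The share of all genes with such a run of direction is not given here. Of the 15 ratios past 1.5-fold, 4 changed sign, in 6 of 118 values: Gch1 in migratory DC-like cells (MASH over Chow) was -0.00374 with each library clustered on its own and -0.23 as a mean over cells, Slc7a5 in dendritic-like cells was -0.23 as a mean over cells and -0.09 with clusters weighted alike, and with clusters weighted alike Qdpr in erythroid-like cells was 0.14 (MASH over Chow) and Gch1 in neutrophil-like cells 0.18 (MASH-Phe-free over MASH). Weighting clusters alike gives each cluster of a class the same part in its level. The cause of these reversals was not tested. Slc7a8 in macrophage-like cells ranged from 0.48 to 0.74 on the log2 scale for MASH-Phe-free over MASH and stayed past 1.5-fold in 2 of the 8, and Il4i1 in plasma-like cells, from 0.75 to 2.53 for MASH over Chow, in all 8. That Il4i1 ratio rested on few cells, with 86.5% of its Chow and 77.0% of its MASH UMIs in the 3 richest. Without those cells both levels were under the 10 CPM that a call needs. Pcbd1, and the other pairs under 50 UMIs, could not be compared at this depth. No paired analysis was possible because each group has 1 library.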
